A study of Rattus norvegicus with 19 samples.

Results

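The 36 genes described here are activity-regulated and immediate-early genes, which neurons switch on within minutes to hours of synaptic activity. They were chosen by symbol, and all 36 were found, each under 1 identifier, among the 32623 genes of the count files. Read counts came from the hippocampus of male Sprague Dawley rats of 4 genotypes that differ in the number of copies of the Sult1a1 to Spn interval on rat chromosome 1, which corresponds to the human 16p11.2 region. The groups were 6 wild-type rats (wt, 2 copies), 4 with a deletion on 1 chromosome (Del/+, 1 copy), 5 with a duplication on 1 chromosome (Dup/+, 3 copies) and 4 that carry the deletion on one chromosome and the duplication on the other (Del/Dup, 2 copies). Both alleles were made with CRISPR/Cas9, the rats were littermates from crosses of Del/+ with Dup/+ animals on an outbred background, and each library came from 1 rat, so that littermates share genetic background across groups. An age in weeks, the hour of dissection and the handling of the rats before the tissue was frozen are not given in the sources used here. The description field places wt replicate 5 among the wild-type rats while its genotype field reads Dup/+, and it was counted as wild-type by its description. Its levels of Mapk3 (92.7 CPM) and Kctd13 (79.6 CPM), both inside the interval, lay in or at the edge of the range of the other wt libraries and below the lowest Dup/+ values of 129 and 110 CPM, where CPM are read counts scaled to the library total after TMM adjustment of that total.

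When a neuron fires, calcium entering through NMDA receptors and voltage-gated channels activates kinases, among them CaMK and ERK, which act on transcription factors already present, such as CREB, SRF with its ternary complex factors, and MEF2. These switch on a rapid set of genes without new protein synthesis. Many of the rapid genes encode transcription factors (Fos, Egr1, Npas4, Nr4a1) that go on to drive later genes, others act at the synapse (Arc, Homer1, Bdnf), and others shut the response down (the phosphatase Dusp1, the kinase Sik1). In the hippocampus the transcripts are widely used to mark neurons that were recently active, and they are also induced by stress, seizures and handling.

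Totals of 16191192 to 38760645 reads on genes were obtained per library. Mapk3, a kinase gene inside the interval, had 94.8 ± 3.67 CPM (mean ± SD, n = 6) in wt, 49.2 ± 8.42 (n = 4) in Del/+, 141 ± 9.86 (n = 5) in Dup/+ and 90.6 ± 7.37 (n = 4) in Del/Dup, in the order of the copy numbers. The multi-mapped share of reads was 40.1% to 47.6% in wt libraries. Dup/+ libraries had 45.1% to 50.5% of such reads, and the Del/Dup libraries had between 57.8% and 70.7%. In Del/+ it was 41.6% in replicate 4 and 63.9% to 76.3% in the other libraries, so this share and the genotype cannot be told apart for Del/Dup against wt. The summed level of choroid plexus markers differed widely between libraries, with lowest and highest sums of 2.43 and 33.2 CPM in wt, 4.59 and 1248 in Del/+, 5.86 and 403 in Dup/+ and 40.3 and 1199 in Del/Dup, and with Otx2 of that list at 0 throughout. The CA1 marker Fibcd1 and the endothelial marker Cldn5 were also listed at 0. All markers listed for excitatory neurons and dentate granule cells passed the filter on low counts, as did 3 of 4 for CA3 (not Iyd).

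To show the regulatory sequence in front of genes whose levels moved together, as described further on, the 250 bases before the annotated start were taken from the RefSeq promoter table (build GRCr8, which is not the rn6 build of the count files, so the positions apply to GRCr8). Entries were matched for 28 members; Fos, Jun, Egr3, Nr4a3, Klf2, Klf10, Atf3 and Arc had no match. 3 sequences with a full cAMP response element (CRE, TGACGTCA, the palindrome bound by CREB) in front of genes that followed Fos across animals are shown first, then Nr4a1, which has 4 partial elements (TGACG), Npas4, which has none, and Scg2, which has a full element but whose level did not follow Fos upward. Capitals mark full and partial CRE, with CGTCA marking a partial element on the opposite strand, and each sequence is read 5′ to 3′ on the strand of the gene.

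Dusp1, chr10:17184603-17184852, plus strand: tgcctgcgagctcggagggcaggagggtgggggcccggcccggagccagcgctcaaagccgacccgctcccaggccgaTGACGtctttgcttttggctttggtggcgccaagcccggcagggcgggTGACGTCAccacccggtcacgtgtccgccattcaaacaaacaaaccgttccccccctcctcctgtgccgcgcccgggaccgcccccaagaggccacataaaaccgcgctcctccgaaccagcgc
Ier2, chr19:40399123-40399372, plus strand: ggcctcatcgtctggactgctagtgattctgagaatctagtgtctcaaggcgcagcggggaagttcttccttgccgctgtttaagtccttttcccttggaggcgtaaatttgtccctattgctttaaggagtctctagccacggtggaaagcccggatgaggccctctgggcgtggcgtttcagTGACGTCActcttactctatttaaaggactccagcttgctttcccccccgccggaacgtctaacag
Btg2, chr13:48087691-48087940, minus strand: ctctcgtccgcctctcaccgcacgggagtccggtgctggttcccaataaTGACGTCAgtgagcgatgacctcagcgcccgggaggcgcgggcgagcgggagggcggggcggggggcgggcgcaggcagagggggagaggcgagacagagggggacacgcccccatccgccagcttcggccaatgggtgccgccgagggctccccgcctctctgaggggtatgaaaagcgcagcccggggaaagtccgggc
Nr4a1, chr7:134259888-134260137, plus strand: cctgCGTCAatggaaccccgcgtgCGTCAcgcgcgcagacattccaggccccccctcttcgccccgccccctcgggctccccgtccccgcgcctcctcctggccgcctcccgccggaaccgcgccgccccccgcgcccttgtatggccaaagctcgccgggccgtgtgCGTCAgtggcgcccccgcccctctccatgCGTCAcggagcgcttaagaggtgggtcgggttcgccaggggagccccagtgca
Npas4, chr1:211716103-211716352, minus strand: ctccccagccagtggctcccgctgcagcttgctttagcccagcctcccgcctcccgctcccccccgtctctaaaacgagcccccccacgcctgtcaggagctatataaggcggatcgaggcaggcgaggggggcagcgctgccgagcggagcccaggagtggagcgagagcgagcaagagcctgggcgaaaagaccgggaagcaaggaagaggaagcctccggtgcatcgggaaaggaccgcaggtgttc
Scg2, chr9:88256867-88257116, minus strand: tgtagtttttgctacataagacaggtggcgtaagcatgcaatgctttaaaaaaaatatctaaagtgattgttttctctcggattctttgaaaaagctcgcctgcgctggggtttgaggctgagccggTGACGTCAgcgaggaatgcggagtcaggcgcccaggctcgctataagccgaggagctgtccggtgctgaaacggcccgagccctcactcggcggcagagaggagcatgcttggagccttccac

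The full CRE began 124 bases before the start in Dusp1, 66 in Ier2, 201 in Btg2 and 123 in Scg2. Searching both strands, TGACGTCA was found in 7 of the 28 promoters (25%), those of Maff, Plk2, Vgf, Scg2, Dusp1, Btg2 and Ier2, against 1.59% of all 33469 promoters of the table. The partial element TGACG, which each full element also holds on both strands, was found in 16 (57.1%) against 18.2%. A CArG box, the motif bound by SRF, was found in those of Egr1, Egr2 and Dusp5 (10.7% against 1.5%). The EGR motif GCGNGGGCG was found in 8 (28.6% against 4.29%), the TATA box TATAAA in 8 (28.6% against 12.9%), and the AP-1 motif TGANTCA in 0, against 6.34%. These are matches of letters in a fixed window and not mapped binding sites.

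The first question was whether the number of copies of the interval changed the level of these genes. None of the 36 passed an adjusted p of 0.05 in any of 5 comparisons of genotypes (edgeR quasi-likelihood test, Benjamini-Hochberg over all 15440 genes tested), although all 36 passed the filter on low counts. Of all genes tested, 0.771% were called in Del/+ against wt, 0.272% in Dup/+ against wt, 0.0907% in Del/Dup against wt, 0.784% in Del/+ against Dup/+ and 0.175% in Del/+ against Del/Dup. At such shares fewer than 1 of 36 genes would be called at the background rate, so the absence of calls does not set the members apart. DESeq2 also called 0 members in each comparison, against 6.94%, 0.446%, 1.1%, 1.56% and 0.53% of the genes it gave an adjusted p. In Del/+ against wt those genes were 9241 of the 24322 it tested, and a member without an adjusted p was counted as not called. The 3 comparisons with wt share the same 6 wt libraries.

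**Figure D1:**
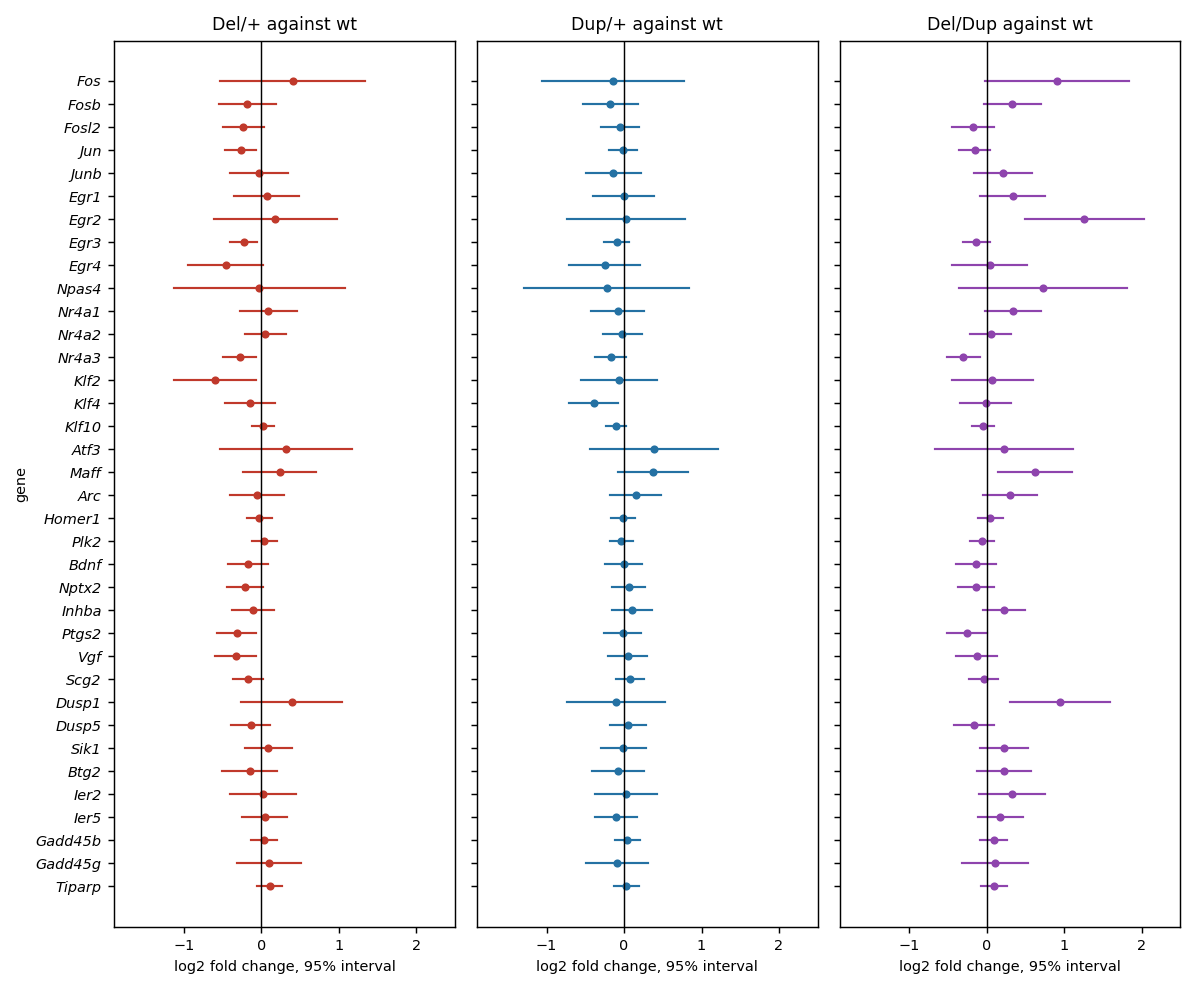
log2 fold change of each of the 36 genes (points) with its 95% interval (lines) in Del/+, Dup/+ and Del/Dup, each against wt, from the edgeR fit. Most intervals include 0, and the widest belong to Fos, Egr2, Npas4, Atf3 and Dusp1; the highest estimate is that of Egr2 in Del/Dup, at 1.26.

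Among the rapid transcription factors, Fos, a partner in the AP-1 dimer, was measured in wt at a lowest, median and highest of 2.77, 5.82 and 16.8 CPM. It stood at 3.74, 18.5, 6.90 and 8.71 CPM in Del/+ replicates 1 to 4, at 4.21, 6.33, 4.78, 10.9 and 5.30 CPM in Dup/+ replicates 1 to 5, and at 24.0, 7.80, 13.9 and 7.52 CPM in Del/Dup replicates 2 to 5. All groups overlapped, and each held 1 library well above its others. The log2 fold change of Fos was 0.41 (SE 0.450) in Del/+, -0.15 (SE 0.440) in Dup/+ and 0.91 (SE 0.446) in Del/Dup, each against wt, with edgeR adjusted p of 0.678, 0.956 and 0.316. Over the settings these estimates ran from -0.11 to 0.88, from -0.44 to 0.69 and from 0.47 to 1.38.

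Npas4, a neuron-specific factor that is induced by calcium influx and regulates inhibitory synapses, was measured in wt at a lowest, median and highest of 1.64, 3.79 and 15.4 CPM. Its values were 2.18, 10.1, 2.47 and 5.97 CPM in Del/+ replicates 1 to 4, 3.22, 5.54, 2.87, 6.85 and 3.44 in Dup/+ replicates 1 to 5, and 14.4, 4.92, 9.89 and 5.21 in Del/Dup replicates 2 to 5. The libraries high in Fos were high in Npas4 as well, and the groups overlapped. Its log2 fold changes against wt were -0.03 (SE 0.527), -0.22 (SE 0.511) and 0.72 (SE 0.522) in Del/+, Dup/+ and Del/Dup, none of which passed (edgeR adjusted p 0.986, 0.939 and 0.496). Over the settings they ran from -0.53 to 0.70, from -0.44 to 1.02 and from 0.37 to 1.45.

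Egr1, a zinc-finger factor linked to long-term potentiation, had in wt a lowest, median and highest of 57.7, 59.4 and 105 CPM. It stood at 59.8, 97.6, 69.2 and 69.4 CPM in Del/+ replicates 1 to 4, at 61.1, 66.3, 54.4, 94.1 and 73.9 in Dup/+ replicates 1 to 5, and at 123, 71.6, 97.6 and 63.6 in Del/Dup replicates 2 to 5. The same libraries were again the highest of their groups, and the groups overlapped. Its log2 fold changes against wt were 0.07 (SE 0.200), -0.01 (SE 0.190) and 0.33 (SE 0.200), with edgeR adjusted p of 0.889, 0.998 and 0.407.

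Nr4a1, an orphan nuclear receptor, had in wt a lowest, median and highest of 28.4, 31.0 and 47.9 CPM. It stood at 28.2, 49.0, 33.7 and 35.3 CPM in Del/+ replicates 1 to 4, at 30.8, 31.8, 29.2, 38.5 and 30.9 in Dup/+ replicates 1 to 5, and at 55, 32.3, 53.8 and 31.8 in Del/Dup replicates 2 to 5. In Del/Dup the values split into a pair above 50 CPM and a pair near those of most wt libraries. The log2 fold changes against wt were 0.09 (SE 0.174), -0.08 (SE 0.166) and 0.34 (SE 0.174), with edgeR adjusted p of 0.823, 0.928 and 0.337.

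The highest estimate of all comparisons was that of Egr2, a zinc-finger factor of the family of Egr1, in Del/Dup against wt. Its log2 fold change was 1.26 (SE 0.371, 95% interval 0.49 to 2.03, edgeR adjusted p 0.156), and over the settings it ran from 0.71 to 1.54. Egr2 stood at 9.95, 2.62, 5.57 and 1.998 CPM in Del/Dup replicates 2 to 5, against a lowest, median and highest of 1.10, 1.94 and 3.56 in wt. Replicates 3 and 5 lay inside the wt range and the others above it. These are low counts, of 25 to 213 reads per library.

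Among the effectors, Arc, a synaptic protein that takes part in AMPA receptor endocytosis, had in wt a lowest, median and highest of 89.98, 110 and 153 CPM. It stood at 90.1, 135, 101 and 116 CPM in Del/+ replicates 1 to 4, at 108, 129, 103, 181 and 118 in Dup/+ replicates 1 to 5, and at 190, 123, 142 and 113 in Del/Dup replicates 2 to 5. The groups overlapped. The log2 fold changes against wt were -0.06 (SE 0.168), 0.15 (SE 0.158) and 0.30 (SE 0.167), with edgeR adjusted p of 0.881, 0.835 and 0.371.

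Homer1, a postsynaptic scaffold whose short activity-induced form cannot be separated from the constitutive long forms in these gene-level counts, spanned 1.40-fold over all libraries. Its lowest, median and highest were 103, 106 and 123 CPM in wt. It stood at 105, 112, 100.2 and 111 CPM in Del/+ replicates 1 to 4, at 104, 100.4, 96.7, 128 and 109 in Dup/+ replicates 1 to 5, and at 135, 103, 108 and 103 in Del/Dup replicates 2 to 5. Its log2 fold changes against wt were -0.03 (SE 0.0789), -0.02 (SE 0.0743) and 0.05 (SE 0.0791), and the 95% intervals ran no further than -0.19 and 0.21 (edgeR adjusted p 0.889, 0.9746 and 0.793).

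Bdnf, the neurotrophin, had in wt a lowest, median and highest of 43.1, 49.9 and 61.6 CPM. It stood at 51.0, 35.4, 51.3 and 46.4 CPM in Del/+ replicates 1 to 4, at 44.4, 60.2, 48.5, 50.8 and 55.7 in Dup/+ replicates 1 to 5, and at 38.6, 53.8, 42.2 and 54.5 in Del/Dup replicates 2 to 5. Its lowest Del/+ and Del/Dup libraries were the ones with the most Fos, while the lowest Dup/+ library was the one with the least Fos and the lowest wt library, replicate 4, was also low in Fos. Its activity-dependent and other transcripts share the gene and are counted together. The log2 fold changes against wt were -0.18 (SE 0.122), -0.00 (SE 0.115) and -0.14 (SE 0.124), with edgeR adjusted p of 0.470, 0.998 and 0.588.

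**Figure D2:**
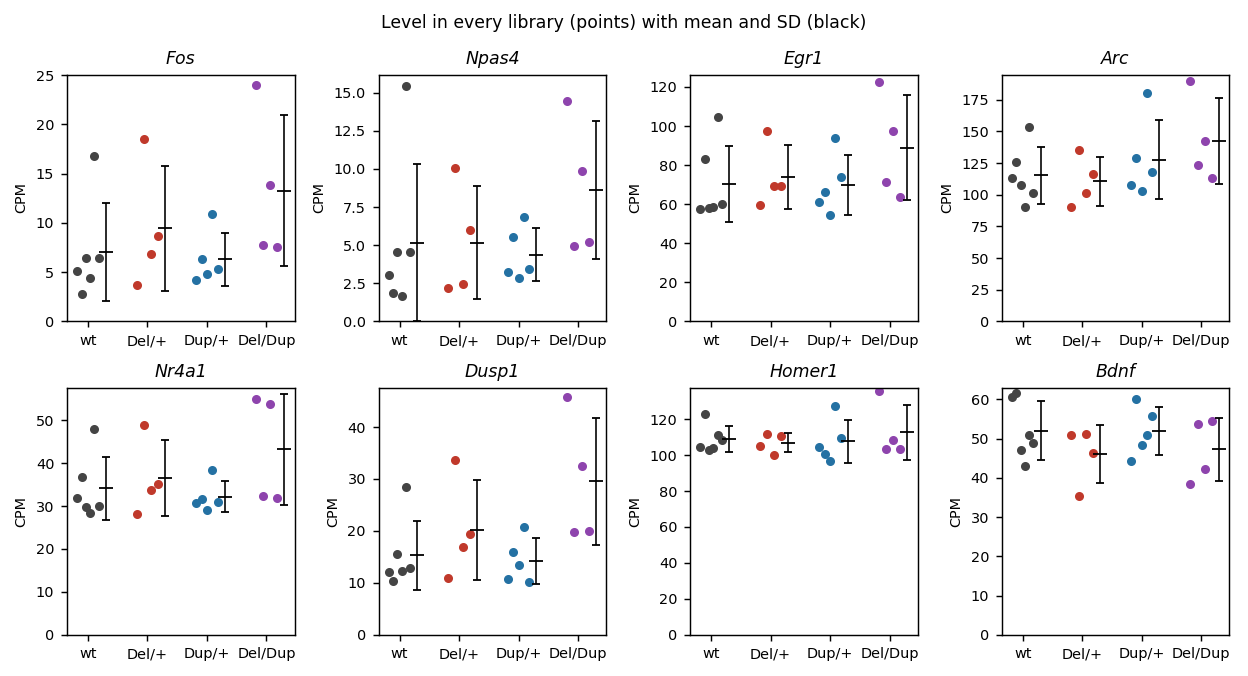
CPM of 8 members in every library (points, by genotype on the x axis, in replicate order from left to right), with the group mean and SD in black; each y axis starts at 0. In Fos, Npas4, Egr1, Arc, Nr4a1 and Dusp1 the highest wt library is replicate 5 and the highest Del/+ library is replicate 2, while Homer1 lies between 96.7 and 135 CPM throughout.

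The feedback gene with the widest range was Dusp1, a phosphatase that inactivates MAP kinases. Its lowest, median and highest were 10.3, 12.6 and 28.5 CPM in wt. It stood at 10.9, 33.7, 17.0 and 19.3 CPM in Del/+ replicates 1 to 4, at 10.7, 15.9, 13.4, 20.8 and 10.2 in Dup/+ replicates 1 to 5, and at 45.7, 19.9, 32.5 and 20.1 in Del/Dup replicates 2 to 5. Every Del/Dup library was above 5 of the 6 wt libraries and 2 were above all 6. The log2 fold change in Del/Dup was 0.95 (SE 0.308, 95% interval 0.30 to 1.59), which did not pass the correction (edgeR adjusted p 0.174).

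The other members were described by counts. At an unadjusted p under 0.05, 6 members stood out in Del/+ against wt, all lower (Jun, Egr3, Nr4a3, Klf2, Ptgs2 and Vgf); this is 16.7% of members, against 18.4% of all genes tested. In Dup/+ against wt the count was 1 (Klf4, lower; 2.78% against 8.94%). In Del/Dup against wt it was 4 (Egr2, Maff and Dusp1 higher, Nr4a3 lower; 11.1% against 16.2%). In Del/+ against Dup/+ it was 5, all lower in Del/+ (Jun, Nptx2, Ptgs2, Vgf and Scg2; 13.9% against 13.5%). In Del/+ against Del/Dup it was 4, all lower in Del/+ (Fosb, Egr2, Klf2 and Inhba; 11.1% against 8.48%). Which share was higher depended on the setting: that of the members exceeded that of all genes in 10 of 28, 1 of 29, 10 of 28, 20 of 28 and 25 of 29 alternative settings, in the order given. With a term for high multi-mapped share, 5.56% of members stood against 8.78% of all genes in Del/+ against Del/Dup. Only Del/+ held both high-share and low-share libraries, so with that term Del/+ replicate 4 alone set the Del/+ level against Dup/+ or wt. With Ttr, a choroid plexus gene, as a covariate, 22.2% of members stood against 14.5% of all genes in Del/+ against wt. With DESeq2, which also tested genes of low counts, the shares of members in the 5 comparisons were 19.4%, 2.78%, 13.9%, 16.7% and 16.7%, against 12.1%, 5.86%, 10.7%, 8.79% and 5.58% of all genes.

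These unadjusted counts depended on single libraries. When each was left out in turn, they ran from 3 to 8 in Del/+ against wt, 0 to 2 in Dup/+ against wt, 2 to 13 in Del/Dup against wt, 3 to 6 in Del/+ against Dup/+ and 2 to 10 in Del/+ against Del/Dup. Without wt replicate 5, which had the most Fos of its group, 13 members in Del/Dup against wt were below 0.05 (36.1%, against 18.5% of all genes). Without Del/Dup replicate 3 the count there was 10 (27.8% against 21.7%), and without Del/Dup replicate 5 it was 9 (25% against 16.1%). Without Del/+ replicate 2, 10 members were below 0.05 in Del/+ against Del/Dup (27.8% against 7.26%). The count was lowest in Del/Dup against wt without Del/Dup replicate 2, at 2 (5.56% against 8.29%), and in Del/+ against wt without Del/+ replicate 4, at 3 (8.33% against 14.3%). Of these settings only the one without Del/Dup replicate 3 brought a member past the adjusted threshold in the comparison named (Nr4a3 in Del/Dup against wt, lower).

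By role, the median log2 fold change in Del/Dup against wt was 0.14 over the 18 transcription factors, -0.06 over the 9 effectors and 0.17 over the 9 feedback genes. In Del/+ against wt these medians were -0.03, -0.17 and 0.04, and in Dup/+ against wt they were -0.09, 0.04 and -0.01. Over all 36 members the medians were -0.03 in Del/+, -0.02 in Dup/+ and 0.09 in Del/Dup, beside medians of 0.00 over all genes tested in Del/+ and Del/Dup and -0.00 in Dup/+. Members with positive log2 fold changes numbered 16, 12 and 23 of 36 in these comparisons. In Del/+ the median was -0.01 against Dup/+ and -0.13 against Del/Dup, beside 0.00 over all genes tested in both. In Del/+ against Del/Dup 30 of 36 members had a negative log2 fold change. The share of all genes with a negative one was not counted, and members varied together between libraries, so these signs are not independent. Against wt, 0 of the choroid plexus, excitatory neuron, CA3, dentate granule cell and oligodendrocyte markers were called, and their medians are given for comparison. The medians of the choroid plexus markers were 3.49 in Del/+, 2.29 in Dup/+ and 4.11 in Del/Dup, those of the excitatory neuron markers -0.21, -0.13 and -0.24, those of the CA3 markers -0.43, -0.13 and -0.40, those of the dentate granule cell markers -0.33, 0.04 and -0.20, and those of the oligodendrocyte markers 0.32, 0.12 and 0.22, each against wt. Of the markers, 3 of 4 blood identifiers were called higher in Dup/+ than in wt (both of Hba-a2, and Hbb), where 0.272% of all genes were called, and 3 were called lower in Del/+ than in Dup/+ (both of Hba-a2, and Alas2), where 0.784% were. Their part in the values of the members was not tested.

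By size of the estimate, the leading members in Del/+ against wt were Klf2 (-0.60, SE 0.254), Egr4 (-0.46, SE 0.233) and Fos (0.41). Klf2 is a Krüppel-like factor also expressed in endothelium, and it was counted at 43 to 137 reads per library. In Dup/+ against wt they were Klf4 (-0.39, SE 0.151), Atf3 (0.39, SE 0.395) and Maff (0.37, SE 0.217), of which Atf3, a stress-induced CREB-family factor, had only 5 to 31 reads per library. In Del/Dup against wt they were Egr2, Dusp1 and Fos, given above. In Del/+ against Dup/+ they were Fos (0.55, SE 0.478), Klf2 (-0.53, SE 0.267) and Dusp1 (0.49, SE 0.330). In Del/+ against Del/Dup they were Egr2 (-1.08, SE 0.411), Npas4 (-0.75, SE 0.580) and Klf2 (-0.67, SE 0.279). The edgeR adjusted p of these largest estimates lay between 0.156 and 0.826.

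Groups without overlap were rare. Egr3, an EGR-family factor, had 49.5 to 54.0 CPM in Del/+ and 54.6 to 68.4 in wt and did not overlap between them. Scg2, a precursor of secreted neuropeptides, had 297 to 359 CPM in Del/+ and 366 to 440 in Dup/+. Inhba, which encodes a subunit of activin A, had 4.14 to 4.95 CPM in Del/+ and 5.30 to 6.21 in Del/Dup. That is 1 member of 36 (2.78%) in each of these comparisons, against 4.94%, 5.3% and 4.37% of all genes tested, and 0 members in the remaining ones, against 1.17% (Dup/+ against wt) and 2.56% (Del/Dup against wt).

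How large a change could have gone unseen depended on the gene. The 95% interval of a member's log2 fold change reached, on either side of the estimate, a median of 0.30 in Del/+ against wt, 0.28 in Dup/+ and 0.30 in Del/Dup, with a lowest of 0.14 in each. The reach was up to 1.10, 1.07 and 1.09 for the most variable members. The interval lay wholly between -1 and 1 for 31, 33 and 30 of the 36 members, so that a change of 2-fold or more was outside the interval for those genes, while for Fos and Npas4 in Del/Dup it was not.

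Many members varied widely between animals of 1 genotype. Within wt Fos spanned 6.07-fold and Npas4 9.38-fold, and within Del/Dup Egr2 spanned 4.98-fold. Each of these spans leaned on 1 library. In wt replicate 5 Fos was at 16.8 CPM (next 6.49) and Npas4 at 15.4 (next 4.58). In Del/Dup replicate 2 Egr2 was at 9.95 CPM (next 5.57). Over the 19 libraries together Fos spanned 8.65-fold, Npas4 9.38-fold and Egr2 9.64-fold, while Plk2, a kinase that acts at overexcited synapses, spanned 1.34-fold, the least of the members. The SD of log2 levels within genotypes had a median of 0.252 over the 36 members against 0.135 over all genes tested. Among genes of like level (within 0.5 log2 units), 23 of 36 members lay above the 90th percentile of this SD and 34 above the 50th. It was 0.918 for Npas4, 0.787 for Fos, 0.670 for Egr2, 0.543 for Dusp1 and 0.350 for Egr1, but 0.132 for Homer1 and 0.127 for Plk2. Atf3 at 0.706 is too low in counts to be read in the same way.

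Much of this spread was shared. In each genotype 1 library held the highest value for most members, namely wt replicate 5 (20 of 36 members), Del/+ replicate 2 (22), Dup/+ replicate 4 (20) and Del/Dup replicate 2 (21). The next library held 7, 7, 5 and 7. How many of all genes tested were highest in the same 4 libraries was not counted, so these counts do not set the members apart. In these 4 libraries Fos lay 1.48, 1.195, 0.87 and 1.02 log2 units above the mean of its genotype. Their multi-mapped shares were 45.4%, 76.3%, 50.5% and 59.9%, which for Del/+ and Dup/+ were the highest of their group and for wt and Del/Dup were not. Their summed choroid plexus markers were 2.43, 4.59, 8.31 and 1199 CPM. Their CA3 markers were 248, 194, 344 and 181 CPM, the lowest of the group in wt, Del/+ and Del/Dup and the highest in Dup/+. The same held for excitatory neuron markers, at 4692, 3961, 4947 and 3704 CPM. Dentate granule cell markers were lowest in Del/+ and Del/Dup only. Markers listed for striatum or cortex outside the hippocampus (4 found of Drd1, Drd2, Ppp1r1b, Lamp5 and Rasgrf2) summed to 137, 158, 115 and 156 CPM in these libraries. Those sums were the highest of the group in wt, Del/+ and Del/Dup. Over all libraries the lowest sum was 102 CPM, so these sums alone do not show tissue from outside the hippocampus. The part of the multi-mapped share and of these markers in the shared variation was not tested.

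**Figure D3:**
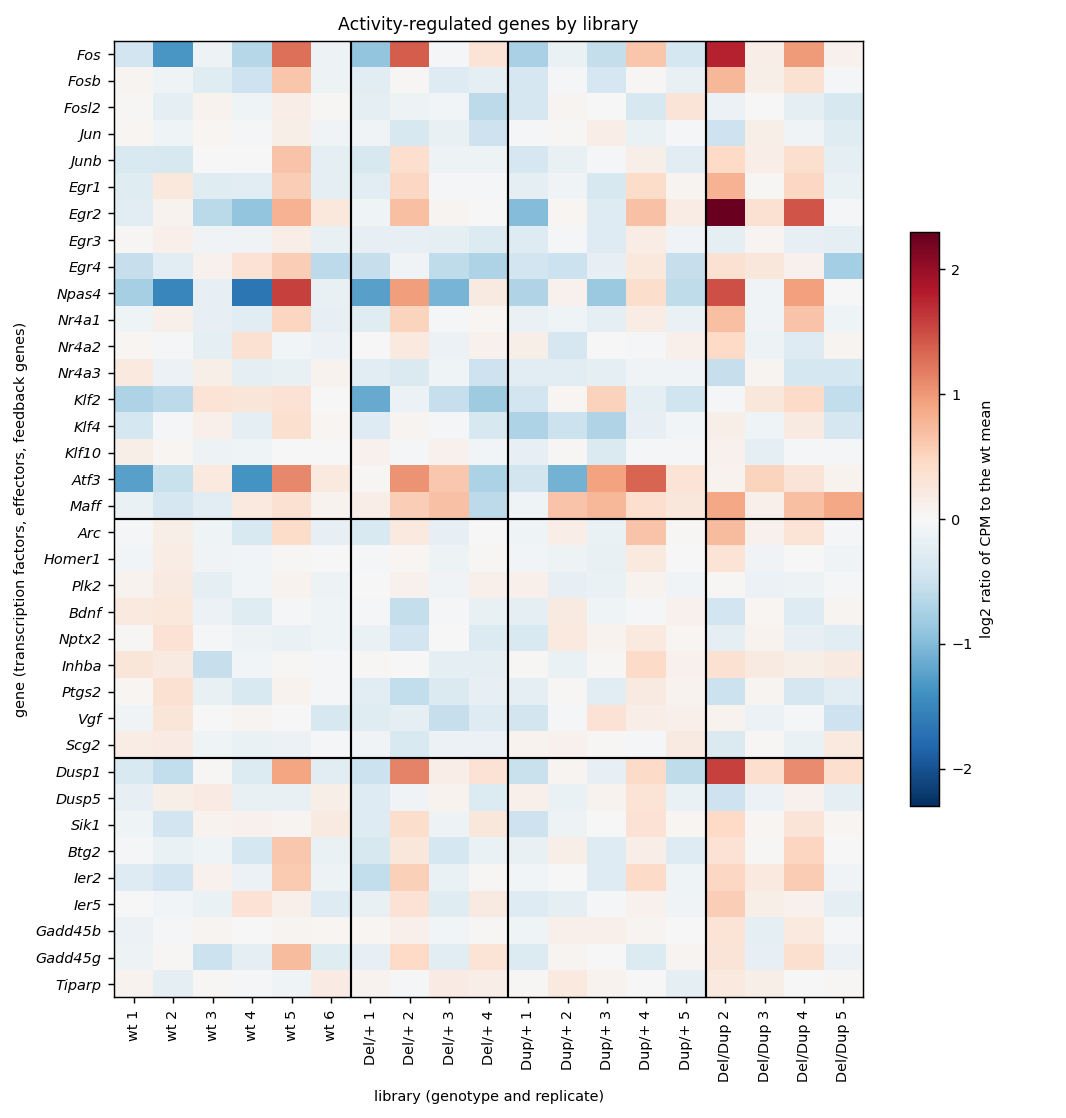
log2 ratio of the CPM of each gene (rows, ordered by role) to its wt mean in each of the 19 libraries (columns, by genotype); red is above and blue below that mean. The red columns of wt 5, Del/+ 2, Dup/+ 4 and Del/Dup 2 run through Fos, Npas4, Egr1, Egr2, Dusp1 and Ier2 and are paler or blue in most effectors from Homer1 to Scg2.

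To measure how far each member moved with Fos, its log2 level was fitted on the log2 level of Fos as deviations within each genotype, in 1 edgeR model over all tested genes other than Fos. The slope gives the log2 units by which a gene rose per log2 unit of Fos. Of the 35 other members 11 had a slope that passed an adjusted p of 0.05, all positive (31.4%), against 0.453% of all 15439 genes (0.376% with a positive slope). The median slope was 0.15 over the members and -0.00 over all genes, and 28 of the 35 slopes were positive. All values in a library share its depth and its tissue piece, so the slope describes genes that varied together between animals and does not say which gene acted on which.

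Among the transcription factors 6 of 17 rose with Fos. Npas4 had the steepest slope, 1.10 (SE 0.0875, edgeR adjusted p 7.98e-07), so that it changed about as many fold as Fos itself. Egr2 followed with 0.62 (SE 0.129, edgeR adjusted p 0.0380). Junb, another AP-1 component, had a slope of 0.35 (SE 0.0431), Egr1 0.32 (SE 0.0668), Nr4a1 0.30 (SE 0.0542) and Fosb 0.29 (SE 0.0581). Their edgeR adjusted p were 0.000497, 0.0399, 0.0174 and 0.0277.

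Jun, the AP-1 partner of Fos, had a slope of -0.06 (SE 0.0465, edgeR adjusted p 0.555) and did not pass. The slopes of Egr3 (0.04, SE 0.0416), Nr4a2 (0.04, SE 0.0654), Nr4a3 (-0.05, SE 0.0525), Fosl2 (0.04, SE 0.0651) and Klf10 (0.01, SE 0.0352) did not pass either. Members of 1 family therefore gave different values, Egr1 and Egr2 beside Egr3 and Nr4a1 beside Nr4a3, but the differences between slopes were not tested. Atf3 (0.49, SE 0.173), Egr4 (0.29, SE 0.0943), Klf2 (0.26, SE 0.118) and Klf4 (0.20, SE 0.0658) had positive slopes that did not pass the correction (edgeR adjusted p 0.177, 0.146, 0.312 and 0.144).

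Of the 9 feedback genes, 4 rose with Fos. Dusp1 had a slope of 0.67 (SE 0.0419, edgeR adjusted p 2.72e-08), the smallest p of all genes tested. Ier2, a small nuclear protein of the rapid set, had a slope of 0.41 (SE 0.0472, edgeR adjusted p 0.000227). The antiproliferative gene Btg2 had 0.30 (SE 0.0489) and the salt-inducible kinase Sik1 0.26 (SE 0.0512), with edgeR adjusted p of 0.00687 and 0.0288. Gadd45g (0.27, SE 0.0791), Ier5 (0.17, SE 0.0601) and Gadd45b (0.09, SE 0.0381) had positive slopes that did not pass the correction (edgeR adjusted p 0.110, 0.182 and 0.288), and Dusp5 (-0.01, SE 0.0632) and Tiparp (0.01, SE 0.0423) had slopes near 0.

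Of the 9 effectors Arc alone passed, with a slope of 0.29 (SE 0.0527, edgeR adjusted p 0.0174). Homer1 (0.07, SE 0.0366), Vgf (0.04, SE 0.0647), Plk2 (0.02, SE 0.0380) and Inhba (0.02, SE 0.0666) had slopes between 0 and 0.1 that did not pass. Ptgs2, the inducible cyclooxygenase, had -0.07 (SE 0.0605) and Nptx2, a secreted pentraxin that clusters AMPA receptors, -0.09 (SE 0.0537). Bdnf (-0.15, SE 0.0543, edgeR adjusted p 0.205) and Scg2 (-0.15, SE 0.0342, edgeR adjusted p 0.0590) had the most negative slopes and did not pass. The full CRE was present before 3 of the 10 members that rose with Fos and had a promoter entry (Dusp1, Btg2 and Ier2) and before 4 of the 18 others (Maff, Plk2, Vgf and Scg2), and a partial element before 8 of 10 and 8 of 18.

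**Figure D4:**
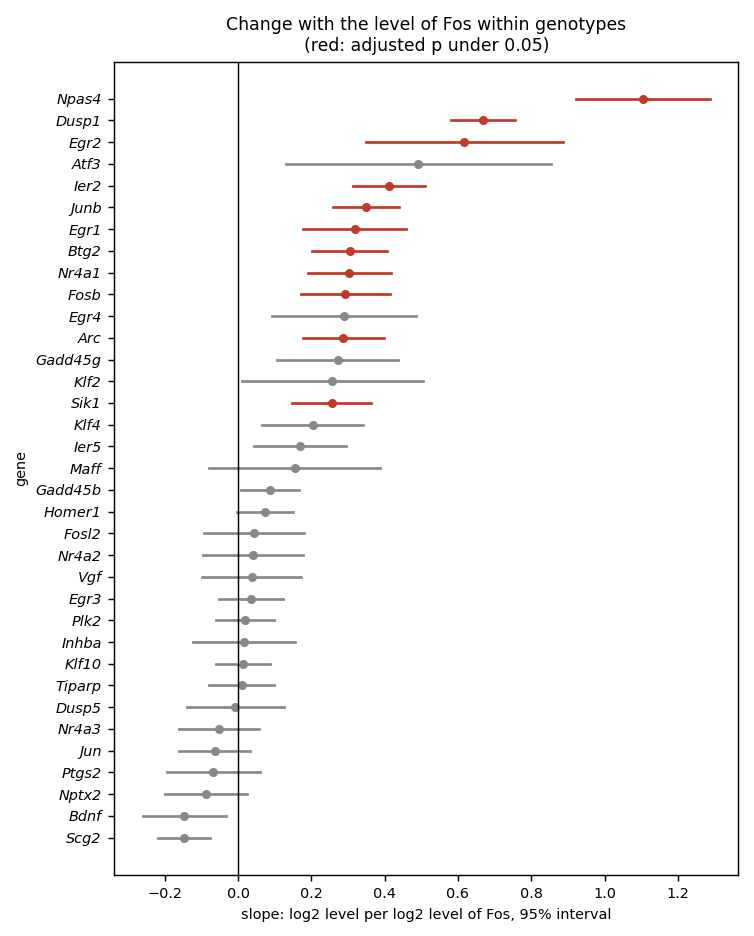
Slope of each of 35 members on Fos within genotypes (points; log2 level per log2 level of Fos) with its 95% interval (lines), sorted by size; red marks an adjusted p under 0.05. Npas4 at 1.10 and Dusp1 at 0.67 lead, and Bdnf and Scg2 stand last at -0.15.

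No single library carried the slope of 4 of these genes. Npas4, Dusp1, Ier2 and Junb passed in all 29 alternative settings, with slopes of 0.99 to 1.22, 0.62 to 0.71, 0.39 to 0.45 and 0.30 to 0.37. Btg2 passed in 26 of 29 settings, Nr4a1 in 23, Arc in 22, Fosb and Sik1 in 21, Egr2 in 16 and Egr1 in 14. Scg2 passed with a negative slope in 4 settings (DESeq2, wt replicate 5 counted as Dup/+, and without wt replicate 4 or Dup/+ replicate 4). Over the 12 libraries with a low multi-mapped share alone, 4 members passed, and with a term for that share 11 did. Without Del/Dup replicate 2 and Del/+ replicate 2, the libraries farthest from the median of Fos, 5 passed. Leaving out wt replicate 5 or Del/+ replicate 2 left 5, Del/+ replicate 1 or Del/Dup replicate 2 left 6, and Del/Dup replicate 3 or 5 left 7.

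Markers of cell types were fitted in the same way, and 0 of the markers in any of the 12 lists passed with Fos. The slopes of the 5 choroid plexus markers tested had a median of 0.55, those of the 3 CA3 markers -0.21 and those of the 5 dentate granule cell markers -0.09. The 6 vascular markers tested had a median of 0.03 and the 5 excitatory neuron markers -0.07. At an unadjusted p under 0.05, the counts were 0 of the choroid plexus markers, 2 of the CA3 markers, 2 of the dentate markers, 0 of the vascular markers and 2 of the excitatory neuron markers, beside 2317 of all 15439 genes. The 4 markers listed for striatum or cortex outside the hippocampus all had positive slopes, of 0.06 to 0.24 with a median of 0.11, and 2 of them had an unadjusted p under 0.05. Their sum was 102 CPM or more in every library, so they do not mark outside tissue alone. The part of such tissue in the slopes of the members was not tested. With the choroid plexus gene Ttr as a covariate, 10 of the 35 members passed. In whole tissue, fewer cells of a type and less RNA per cell cannot be told apart.

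The genes upstream of these members (receptors, kinases and resident transcription factors; 41 listed, 40 tested) held 2 called genes in Del/+ against wt (5% of the 40, against 0.771% of all genes), 1 in each of Dup/+ against wt, Del/+ against Dup/+ and Del/+ against Del/Dup (2.5%, against 0.272%, 0.784% and 0.175%), and 0 in Del/Dup against wt (against 0.0907%). In Del/+ against wt 2 were lower, Mapk3, which lies in the deleted interval (log2 fold change -0.95, SE 0.0816, edgeR adjusted p 2.40e-07), and Camkk2, a kinase that activates CaMKI and CaMKIV (-0.21, SE 0.0471, edgeR adjusted p 0.0359). Camkk2 was called in only 16 of 28 alternative settings, and the call was lost without wt replicate 1, 2, 3 or 5 or Del/+ replicate 1, 2 or 4. It was also lost with Ttr as a covariate, with wt replicate 5 counted as Dup/+, with library size alone and with no filter on low counts. A term for high multi-mapped share, with which Del/+ replicate 4 alone set the Del/+ level, lost the call as well. In Dup/+ against wt only Mapk3 was called, higher (0.57, SE 0.0732, edgeR adjusted p 0.000224), a call that was lost with wt replicate 5 counted as Dup/+ (0.48, edgeR adjusted p 0.101) and kept in the other 28 of 29 settings. It was also lower in Del/+ than in Dup/+ (-1.52, SE 0.0853) and in Del/Dup (-0.88, SE 0.0880), with edgeR adjusted p of 1.04e-10 and 3.09e-06. At an unadjusted p under 0.05 the shares of the 40 were 35% in Del/+, 17.5% in Dup/+ and 32.5% in Del/Dup, each against wt, where 18.4%, 8.94% and 16.2% of all genes were below it. In Del/+ the share was 27.5% against Dup/+ and 7.5% against Del/Dup, beside 13.5% and 8.48% of all genes. Mapk3 encodes ERK1, one of the kinases that carry the signal to the immediate-early genes, and no member was called in the comparisons in which it was. At the shares of all genes called there, fewer than 1 of 36 members would be called, so this does not set the members apart. The slope of Mapk3 on Fos was -0.09 (SE 0.0351, edgeR adjusted p 0.223). Of the 40, only Mef2c, an activity-regulated transcription factor, passed with Fos, at 0.36 (SE 0.0704, edgeR adjusted p 0.0239; 2.5% of the 40, against 0.453% of all genes), while Creb1 (0.00, SE 0.0499) and Srf (-0.04, SE 0.0251) did not. Mef2c passed in 20 of 29 settings and lost its call without any 1 of wt replicate 5, Del/+ replicates 1 and 2 and Del/Dup replicates 2, 3 and 5, over the low-share libraries alone, and without the 2 libraries farthest from the median of Fos.

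A further 30 activity genes outside the 36 were listed, of which 28 were tested. Dusp4, a MAP kinase phosphatase, was lower in Del/+ than in Dup/+ (log2 fold change -0.35, SE 0.0781, edgeR adjusted p 0.0387); this is 1 of 28, where 0.784% of all genes were called, and 0 were called in the other comparisons. Dusp4 was called in 17 of 28 settings, and the call was lost without wt replicate 6, Del/+ replicate 1, 2 or 4 or Dup/+ replicate 2, 3 or 5. It was also lost with library size alone, with wt replicate 5 counted as Dup/+ or with only the groups compared. A term for high multi-mapped share, with which Del/+ replicate 4 alone set the Del/+ level, lost the call as well. At an unadjusted p under 0.05 the shares of the 28 were 25% in Del/+, 14.3% in Dup/+ and 25% in Del/Dup against wt, with the shares of all genes as just given. In Del/+ they were 25% against Dup/+ and 7.14% against Del/Dup. With Fos, 2 of 28 rose (7.14%, against 0.453% of all genes): Ccn1, a secreted matrix protein and rapid target of SRF and YAP (slope 0.88, SE 0.132, edgeR adjusted p 0.00400), and Trib1, a pseudokinase (0.34, SE 0.0684, edgeR adjusted p 0.0303). Ccn1 passed in 27 of 29 settings and lost its call without wt replicate 5, while Trib1 passed in 20 and lost its call in the same settings as Mef2c.

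By the smallest p of the slope, the 10 genes outside the member list most like Fos over the 19 libraries were AC134224.3, Cd34, Ccn1, Jcad, Cit, Utrn, Tmem132d, AC134224.1, AABR07031445.1 and Cntn3, all with positive slopes and edgeR adjusted p between 0.00337 and 0.00881. They passed in 24 to 27 of 29 settings. Cit, Ccn1, Tmem132d, AC134224.1, AABR07031445.1 and Cntn3 lost their calls without wt replicate 5, Cntn3 also without Del/+ replicate 2, and all but Ccn1, AC134224.1 and AABR07031445.1 lost theirs over the low-share libraries alone. Without the 2 libraries farthest from the median of Fos, Cd34, Jcad, Cit, Utrn, Tmem132d and Cntn3 lost theirs. Cd34 and Jcad are known from endothelial cells, and their slopes were 0.33 (SE 0.0475) and 0.19 (SE 0.0293). Utrn, which encodes the dystrophin relative utrophin, had 0.17 (SE 0.0263), and Cit, which encodes citron kinase, 0.30 (SE 0.0457). The steepest of the 10 was that of AABR07031445.1, an unnamed gene at 0 to 4.48 CPM (1.899, SE 0.309), and Ccn1 is also among the further activity genes.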

How the data were processed

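Hippocampal RNA from 19 rats was sequenced by the authors as single-end reads, aligned with HISAT2 to rn6 and counted per gene with HTSeq; what was deposited for each rat is the raw count of reads on each gene. The labels name a total RNA kit with rRNA removal and also a polyA molecule type, and the strand setting of the counting is not given in the sources used here, so reads of overlapping antisense genes cannot be told apart. The 5 summary lines of each file (multi-mapped 40.1% to 76.3% and no feature 6.94% to 16.1%) stayed out of totals and tests. Groups follow the description field.

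Counts were filtered with filterByExpr, scaled by TMM and tested with edgeR 4.0.16 (R 4.3.3; quasi-likelihood, 1 mean per genotype over all 19 libraries, prior count 2, SE from the F statistic). DESeq2 1.42.0, other scalings, no filter, leaving out each library, a replicate block, terms for the multi-mapped share (above 55%) and Ttr, and wt replicate 5 as Dup/+ were alternatives. The scripts were tested on simulated data. P-values measure the spread between animals. The biological coefficient of variation was 0.101. No libraries were duplicates.

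Members and lists were chosen with earlier results of these data known. Values of every library (for wt the lowest, median and highest) were to be given for members called in any comparison and for Fos, Egr1, Arc, Npas4, Nr4a1, Homer1 and Bdnf. Named by their estimates were the 3 largest changes per comparison; called genes of the other lists; and the 10 genes most like Fos. Egr2, Dusp1, Egr3, Scg2 and Inhba were added after their values were seen. Motifs were searched on both strands of the 250 bases before each RefSeq start.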

Additional observations from a re-analysis of the deposited data

Results flagged for a closer look

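In 11 of 144 tests of a gene in a genotype group, the most extreme library stood apart from the rest by more than Dixon's 95% limit. All 11 were high. For normally spread values chance gives about 1 in 20, or 7.2 here. The test was run on CPM and not on log2 levels, and members varied together, so 11 cannot be weighed against 7.2. In wt replicate 5 the genes that stood apart were Fos at 16.8 CPM (next 6.49), Junb at 62.6 (next 39.8), Npas4 at 15.4 (next 4.58), Dusp1 at 28.5 (next 15.6), Btg2 at 25.8 (next 16.3) and Gadd45g at 7.77 (next 4.73). This is the library whose genotype field reads Dup/+ and whose Mapk3 (92.7 CPM) and Kctd13 (79.6 CPM) lay below every Dup/+ library. Egr2 stood apart in Del/+ replicate 2 at 3.32 CPM (next 2.13), Nr4a1 in Dup/+ replicate 4 at 38.5 (next 31.8) and Homer1 in Del/Dup replicate 2 at 135 (next 108); these are the libraries with the most Fos in their groups. Egr3 in Del/Dup replicate 3 at 64.3 CPM (next 53.8) and Nptx2 in wt replicate 2 at 75.0 (next 60.9) were not in such libraries.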

How the results depend on the processing

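In the comparisons of genotypes the count of called members was 0 in every alternative run, except that leaving out Del/Dup replicate 3 called 1 in Del/Dup against wt, Nr4a3 (log2 fold change -0.43, edgeR adjusted p 0.0341; range over libraries left out 0 to 1, and 0 to 0 elsewhere). Leaving out wt replicate 5 raised the members with an unadjusted p under 0.05 in that comparison from 4 to 13 (36.1%, against 18.5% of all genes), and counting it as Dup/+ gave 13 as well (36.1% against 18.3%). The 11 members whose level changed with that of Fos became 4 under the replicate block (Junb, Npas4, Dusp1 and Ier2, the only 4 genes of all tested to pass there, so that Mef2c, Trib1 and the 10 genes most like Fos did not), 4 in low-share libraries only, 5 without the 2 libraries farthest from the median of Fos, and 5 to 13 when libraries were left out in turn (13 without Dup/+ replicate 4, of which 12 rose and Scg2 fell); the cause was not tested. Other settings gave 10 to 12, with Scg2 as the 1 falling member among the 12 under DESeq2 and among the 10 with wt replicate 5 counted as Dup/+. The replicate block changed no other count of called members. The replicate numbers did not pair the samples: over 24 pairs r ran from -0.17 to 0.12, 2 were over 0.1, and 0 of 18 libraries correlated best with their own number. Within a multi-mapped class, Del/+ and Del/Dup cannot be compared with wt, since low-share libraries hold 1 Del/+ and 0 Del/Dup. Depth limits Atf3 (5 to 31 reads) and Maff (11 to 32 reads).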
